A study of Mus musculus with 4 samples.

Results

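Notch receptors, their ligands and 2 of their target genes were followed in bulk RNA from mouse mammary tumours. The 10 genes were chosen by name (Notch1, Notch2, Notch3, Notch4, Jag1, Jag2, Dll1, Dll4, Hes1 and Hey1) from the 20555 genes of the deposited table, and each was found there once. Poly(A)-selected RNA-seq libraries came from 2 tumour samples per group. Control-PyMT carries PyMT alone, a viral oncogene (polyoma middle T) that makes mammary glands form tumours. MYC-PyMT carries PyMT together with S100a8-cre and Rosa26-LSL-MYC: Cre driven by S100a8, which is very active in neutrophils, removes a stop cassette and so switches on MYC. All 4 libraries therefore share PyMT. The labels name no strain, age or sex, no promoter for PyMT and no species for the MYC transgene, and they do not say whether replicates are different animals. The p-values therefore reflect only how far these libraries vary, and that variation may be technical. RNA integrity numbers ran from 3.3 to 9.6 over the samples, a range from degraded to intact RNA, and the number of each library is not given in the sources used here. The design sets PyMT tumours with MYC against PyMT tumours without it. Below, values of a pair of libraries are given in the order replicate 1, replicate 2, and "the controls" are the Control-PyMT libraries.

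Notch is a receptor on one cell that is switched on by a ligand on its neighbour. Binding lets the proteases ADAM10 and γ-secretase cut the receptor, and the freed intracellular part enters the nucleus, where it joins the DNA-binding protein RBPJ and a Mastermind coactivator to turn on repressor genes of the HES and HEY families. In the mammary gland the pathway is known for its part in luminal cell fate, and in blood vessels for the choice between tip and stalk cells and for arterial identity.

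In MYC-PyMT the target genes Hey1 and Hes1 and the ligand gene Dll1 were lower, Notch4 was higher, and the other 6 genes did not pass the test. Hey1 fell 14.5-fold and Dll1 15.1-fold, Hes1 fell 2.17-fold and Notch4 rose 1.99-fold, on the scale of scaled counts plus 1. The test was limma on log2(scaled count + 1) with Benjamini-Hochberg adjustment over 16725 genes, and the threshold was an adjusted p of 0.05. All 10 genes passed the level filter, which asked for 2 libraries with a value of 10 or more. Calls were common across the whole table. Of all genes tested, 47.9% passed in either direction, 23.3% higher and 24.6% lower in MYC-PyMT, so 4 of 10 is a share near the background. What separated Hey1 and Dll1 was the size: a call with a fall of at least 8-fold was made for 3.90% of genes tested. The median log2 change was -0.36 over the 10 genes and -0.02 over all genes tested. Groups did not overlap for 6 of the 10 genes, against 75.7% of all genes tested. Of these 6, 2 were higher in MYC-PyMT (37.0% of all genes tested) and 4 lower (38.7%).

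**Figure D1:**
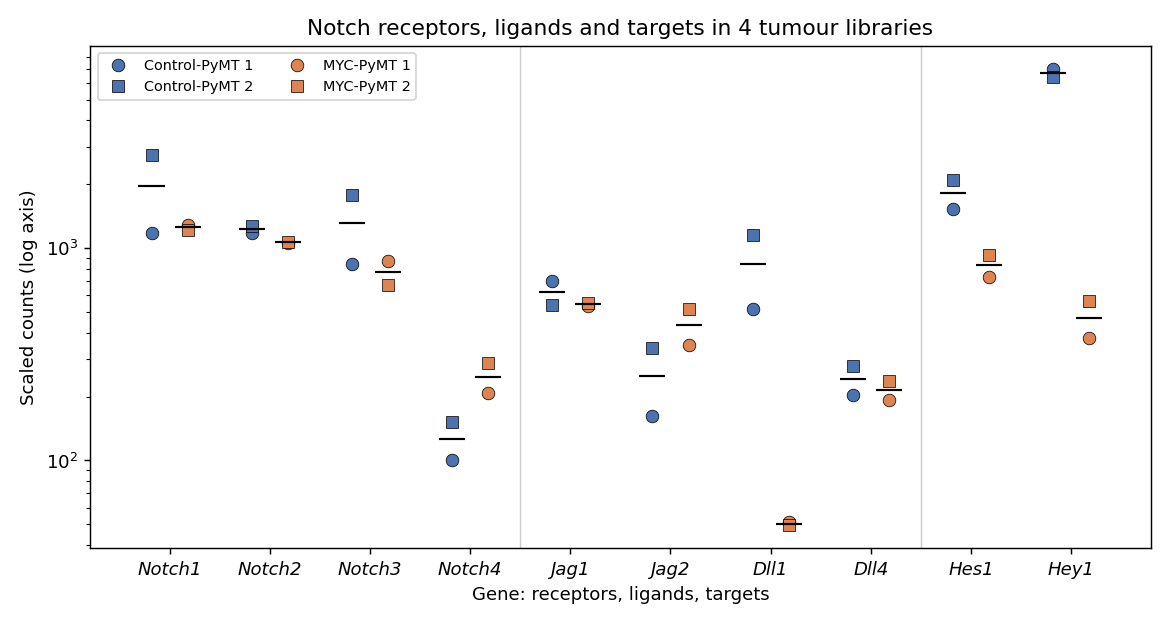
Scaled counts (log axis) of the 10 genes in each library, with receptors, ligands and targets from left to right, parted by grey lines. Points are libraries, circles replicate 1 and squares replicate 2, and bars are the group means (n = 2). Hey1, Hes1 and Dll1 lay lower in both MYC-PyMT libraries than in either Control-PyMT library, and Notch4 lay higher.

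Values are scaled counts, that is, reads divided by a size factor of the library but not by gene length, and group values are the mean ± SD (n = 2). Libraries held 31783846 to 34190913 reads in genes. Control-PyMT replicate 2 stood apart for these genes: 8 of the 10 were higher there than in replicate 1, against 44.2% of all genes tested, and 5 were higher by over 1.5-fold, against 12.9%. In bulk tissue, fewer cells of a type and less RNA per cell cannot be told apart. Reads of overlapping genes may be shared, because the strand setting of the counting is not given in the sources used here. Genes on the opposite strand overlap Notch1, Notch3, Notch4 and Dll4 as well as Dll1, and those in the table reached at most 61.2 scaled counts.

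Per kilobase of transcript, the most abundant of the 10 genes in the controls was Hey1 (ENSMUSG00000040289.8, chromosome 3, 8663359 to 8667256, minus strand, GRCm38), a repressor with a basic helix-loop-helix domain that is best known from arteries and heart. The controls stood at 7007 and 6380.4 scaled counts, the MYC-PyMT libraries at 376 and 564. Both MYC-PyMT values were far under both controls, and the controls lay close together. The mean went from 6694 ± 443 to 470.1 ± 132, a log2 change of -3.86 (SE 0.23, limma adjusted p = 4.25e-06). Hes1 (ENSMUSG00000022528.7, chromosome 16, 30064384 to 30067796, plus strand) encodes the repressor that is the classic Notch target in many tissues. It gave 1538 and 2087 scaled counts for the controls against 729.6 and 931 with MYC, again with no overlap. Its log2 change came to -1.12 (SE 0.23, limma adjusted p = 0.00285).

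Levels of different genes were compared per kilobase of transcript. Transcript lengths ran from 1468 bases (Hes1) to 10500 bases (Notch2). Whether RNA integrity affects long and short transcripts differently on the per-kilobase scale was not tested. On that scale the ratio of Hey1 to Hes1 was 2.76 and 1.85 for the controls against 0.313 and 0.367 with MYC. Hey1 was thus the more abundant of the pair in both control libraries and the less abundant in both MYC-PyMT libraries. An exact two-sided permutation test of the log2 ratio gave p = 0.333, the smallest that 2 libraries a group allow.

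The ligand gene Dll1 (ENSMUSG00000014773.13, chromosome 17, 15367354 to 15376872, minus strand) encodes a Delta-type ligand, which in the mammary gland is known from basal cells. It gave 518 and 1159 scaled counts for the controls against 51.3 and 49.5 with MYC. The control libraries differed from each other, but even the lower one was far above both MYC-PyMT libraries. Its log2 change came to -3.92 (SE 0.37, limma adjusted p = 4.55e-05). It was -4.50 without Control-PyMT replicate 1 and -3.34 without Control-PyMT replicate 2, and it passed in both cases. A noncoding gene on the opposite strand, A930024N18Rik, overlaps the start of Dll1, and it was at 24.3 and 44.2 scaled counts for the controls against 3.02 and 5.49 with MYC.

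Of the 10 genes, 8 had a promoter window in the RefSeq-derived table (GRCm38.p6), Dll1 with 2 of them, and Hes1 and Hey1 were not among them. Each window was searched on both strands over the 250 bases before the start site for GTGGGAA, a form of the site that RBPJ binds, for its core TGGGAA, which the longer motif contains, and for the E-box CACGTG that MYC and MAX bind. None of the 9 windows held any of these letters. Of all 32851 windows, 5.42% held GTGGGAA, 21.6% TGGGAA and 6.02% CACGTG. The distal Dll1 window (chr17:15376933-15377182, minus strand) is shown because Dll1 was the ligand gene that fell. Windows were also searched for further pathway genes called with at least 2-fold change, 8 lower (11 windows) and 5 higher (8 windows). The 5 include Dlk1, which met the level filter through the MYC-PyMT libraries alone. GTGGGAA was in 1 window of the lower genes and 0 of the higher, and TGGGAA in 2 genes of each. The Hey2 window is shown because Hey2, a close relative of Hey1 whose values follow with the other pathway genes, was the 1 gene with GTGGGAA. The match lies on the opposite strand and is in capitals. The Hey2 stretch (chr10:30842802-30843033, minus strand) ends 19 bases before the start site, where annotated exons begin. Both are written 5′ to 3′ on the strand of the gene. A match is a string of letters and not evidence of binding.
Dll1: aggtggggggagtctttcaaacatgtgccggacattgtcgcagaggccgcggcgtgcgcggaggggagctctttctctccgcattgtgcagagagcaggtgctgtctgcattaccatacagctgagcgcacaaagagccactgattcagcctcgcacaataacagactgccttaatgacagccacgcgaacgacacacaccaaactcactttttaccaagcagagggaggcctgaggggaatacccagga
Hey2: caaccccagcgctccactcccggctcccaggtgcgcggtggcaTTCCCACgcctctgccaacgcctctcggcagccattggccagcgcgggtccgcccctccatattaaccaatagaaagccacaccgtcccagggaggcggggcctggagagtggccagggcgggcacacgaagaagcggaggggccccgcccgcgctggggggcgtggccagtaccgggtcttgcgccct

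The remaining ligand genes did not pass. Jag2 (ENSMUSG00000002799.5, chromosome 12, 112907819 to 112929776, minus strand), a Serrate-type ligand, gave 162 and 341 scaled counts for the controls against 350.2 and 519.8 with MYC. The groups did not overlap, though Control-PyMT replicate 2 came within a few counts of MYC-PyMT replicate 1. Its log2 change came to 0.86 (SE 0.36, limma adjusted p = 0.0741). It passed without Control-PyMT replicate 2 (1.39, adjusted p = 0.0198) or MYC-PyMT replicate 1 (1.14, 0.0124), and with the transcript length trend removed (1.13, 0.0276). Without Control-PyMT replicate 1 it was 0.32 (adjusted p = 0.432) and without MYC-PyMT replicate 2 it was 0.57 (0.269). Jag1 (ENSMUSG00000027276.7, chromosome 2, 137081456 to 137116644, minus strand), the other Serrate-type ligand, gave 701 and 540.2 scaled counts for the controls against 536 and 555 with MYC. Dll4 (ENSMUSG00000027314.6, chromosome 2, 119325784 to 119335962, plus strand), the Delta-type ligand of endothelial tip cells, gave 204 and 278 for the controls against 193 and 237 with MYC. For Jag1 and Dll4 the groups overlapped, and the log2 changes were -0.17 (SE 0.23, limma adjusted p = 0.550) and -0.15 (SE 0.28, adjusted p = 0.679).

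Among the receptors, Notch4 was called. Notch4 (ENSMUSG00000015468.14, chromosome 17, 34564268 to 34588503, plus strand) is the receptor of vascular endothelium. It gave 100.1 and 151 scaled counts for the controls against 208 and 289 with MYC, so both MYC-PyMT libraries were above both controls. Its log2 change came to 0.99 (SE 0.32, limma adjusted p = 0.0265). The call ended without Control-PyMT replicate 1 (0.70, adjusted p = 0.134) and without MYC-PyMT replicate 2 (0.76, adjusted p = 0.174). Endothelial markers were mixed: of 12 tested, 5 rose, 1 fell and 6 did not pass. Of all genes tested, 23.3% were called higher and 24.6% lower. The marker that fell, Vwf, had a log2 change of -2.32, and the largest rise was 1.59 (Cldn5). Kdr, Flt1, Tek and Eng, which did not pass, lay between -0.02 and 0.22. The summed level of the 12 markers was 3567 to 4925 scaled counts in Control-PyMT and 5182 to 6432 in MYC-PyMT. None was at 0 in both MYC-PyMT libraries. Their part in the Notch4 result was not tested.

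Notch1 (ENSMUSG00000026923.15, chromosome 2, 26457903 to 26516663, minus strand), the receptor best known from T cell development and also used by luminal progenitors, gave 1184 and 2751 scaled counts for the controls against 1288 and 1223 with MYC. Notch3 (ENSMUSG00000038146.7, chromosome 17, 32120820 to 32166852, minus strand), the receptor of vascular smooth muscle and pericytes, gave 839 and 1781 for the controls against 870.5 and 673 with MYC. For both receptors Control-PyMT replicate 2 was the one high library, and the other 3 libraries lay close together. Their log2 changes were -0.52 (SE 0.33, limma adjusted p = 0.217) and -0.68 (SE 0.32, adjusted p = 0.111). Without Control-PyMT replicate 2 they were 0.084 (adjusted p = 0.737) and -0.13 (0.684), and without Control-PyMT replicate 1 they were -1.13 (0.00540) and -1.22 (0.00998), which passed. Notch3 also passed without MYC-PyMT replicate 1 (-0.86, adjusted p = 0.0309). Notch2 (ENSMUSG00000027878.11, chromosome 3, 98013527 to 98150361, plus strand), a widely expressed receptor, was the steadiest, with 1176 and 1279 scaled counts for the controls against 1063 and 1066 with MYC. Its groups did not overlap, but the log2 change was only -0.20 (SE 0.19, limma adjusted p = 0.400).

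Per kilobase of transcript, the 4 receptors summed to 357 and 657 scaled counts per kb in the controls and to 377 and 358 with MYC, so the groups overlapped. Notch1, Notch2 and Notch3 made up most of that sum in every library. The share of Notch4 was 4.26% and 3.49% in the controls against 8.38% and 12.2% with MYC. Among the 4 ligands the mix changed more. Dll1 took 40.7% and 57.7% of the ligand sum in the controls against 6.23% and 4.97% with MYC, while Jag2 took 8.91% and 11.9% in the controls against 29.8% and 36.6% with MYC. Jag1 took 35.1% and 17.2% in the controls against 41.5% and 35.6% with MYC. The ligand sum itself was 356 and 561 scaled counts per kb in the controls against 230.1 and 278 with MYC, without overlap. Shares within a sum are tied to each other, so a lower Dll1 share raises the rest.

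**Figure D2:**
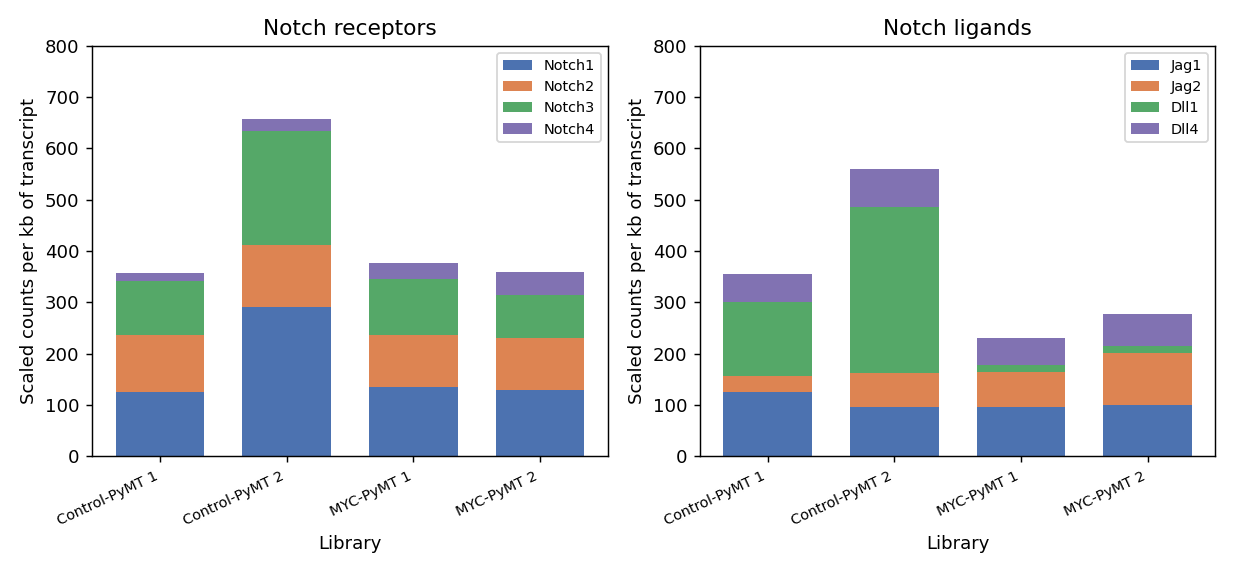
Stacked bars of scaled counts per kb of transcript for the 4 receptors (left) and the 4 ligands (right), 1 bar per library. The Dll1 segment, 40.7% and 57.7% of the ligand sum in the Control-PyMT libraries, shrank to 6.23% and 4.97% in the MYC-PyMT libraries, while the 3 receptors Notch1, Notch2 and Notch3 kept most of the receptor sum.

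Ordered by level per kb, Hey1 came first in Control-PyMT (2633 to 2892 scaled counts per kb) and Hes1 next (1048 to 1422), both clear of each other and of the rest. Dll1, Notch1, Notch3, Notch2 and Jag1 followed in that order between 96.3 and 324 scaled counts per kb, and each overlapped its neighbour. Dll4, Jag2 and Notch4 were lowest, with Notch4 at 15.2 to 22.9. In MYC-PyMT, Hes1 came first (497 to 634), then Hey1 (155 to 233) and Notch1 (129 to 136). Dll1, at 13.8 to 14.3 scaled counts per kb, moved from the third place to the last, below Notch4. Neighbours that overlapped in MYC-PyMT were Jag1 with Notch3 and Notch3 with Jag2.

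The rest of the pathway was read from lists by role, 73 further genes, of which 70 were in the table and 68 passed the level filter. Of these 68, 8 rose (11.8%) and 20 fell (29.4%), beside 23.3% and 24.6% of all genes tested, and 40 did not pass. The same shares of all genes tested stand beside each count by role below, and each role holds few genes. Dlk1, 1 of the 8, met the level filter through the MYC-PyMT libraries alone. The median log2 change was -0.26. Fewer fell without MYC-PyMT replicate 1, and fewer rose without MYC-PyMT replicate 2. The same counts over all genes tested were smaller there too. Changes of at least 2-fold were called for 18 genes, 12 lower and 6 higher, with Dlk1 among the 6. These are 17.6% and 8.82% of the 68, beside 18.3% and 14.4% of all genes tested, so the lower count was near the background and the higher count under it.

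Further genes of the HES and HEY families split, in a list that also held Nrarp, Bhlhe40 and Bhlhe41. Of 7 tested, 1 rose, 2 fell and 4 did not pass. Those that fell were Hey2 and Bhlhe41 (log2 change -0.80, limma adjusted p = 0.0303). Hey2, which like Hey1 encodes a repressor of artery and heart development, gave 108 and 225 scaled counts for the controls against 13.1 and 18.7 with MYC (log2 change -3.24, SE 0.43, limma adjusted p = 0.000290). Hes6, whose product counteracts HES1, rose from 816 ± 12.7 to 1712 ± 312 (1.06, adjusted p = 0.00234). Heyl, another HEY gene, stood at 66.4 and 147 for the controls against 81.5 and 96.7 with MYC (-0.15, adjusted p = 0.776), and Nrarp, a feedback inhibitor that Notch induces, at 37.4 and 78.1 for the controls against 24.2 and 51.7 with MYC (-0.60, adjusted p = 0.340). The groups overlapped for both. Among 6 genes that Notch is known to induce in particular tissues, 3 fell and 3 did not pass. The latter were Myc (log2 change 0.40, limma adjusted p = 0.172), Il7r (0.88, adjusted p = 0.0735) and Cdkn1a (-0.44, adjusted p = 0.214). The species of the MYC transgene is not named, so whether its reads enter the Myc value is not known. Gata3, a regulator of luminal and T cells, went from 5009 ± 1483 to 1670 ± 293 (-1.56, adjusted p = 0.000591), Ccnd1, cyclin D1, from 11796 ± 1653 to 4656.5 ± 586 (-1.34, adjusted p = 0.000486) and Snai2, a transcriptional repressor active in basal cells, from 263 ± 11.6 to 123 ± 29.9 (-1.11, adjusted p = 0.0103). The Snai2 call ended without Control-PyMT replicate 1 (-1.07, adjusted p = 0.0531) and without MYC-PyMT replicate 1 (-0.86, adjusted p = 0.0858).

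Enzymes that put sugars on Notch rose in 2 of 6 cases and fell in 1. The fringe genes Mfng and Rfng, whose products alter which ligands a receptor answers to, went from 102 ± 6.90 to 364 ± 17.4 scaled counts (log2 change 1.82, limma adjusted p = 0.000431) and from 424 ± 198 to 1038 ± 211 (1.36, adjusted p = 0.00618). The third fringe gene, Lfng, had a log2 change of 0.43 that did not pass (adjusted p = 0.151). Eogt, which adds N-acetylglucosamine to EGF repeats, fell from 1491 ± 123 to 731 ± 46.9 (-1.03, adjusted p = 0.00210). Of the atypical ligands, Egfl7, a secreted vascular protein that binds Notch, rose from 533 ± 124 to 1398 ± 368 (1.38, adjusted p = 0.00172). The endothelial markers given above were mixed, and their part in the Egfl7 result was not tested. Dlk1, a membrane protein resembling Delta, had 3 reads in the controls and 36 with MYC, each summed over a pair of libraries, a ratio of scaled levels of 14.2 (exact 95% counting interval 4.47 to 71.9, counting error only). It met the level filter through the MYC-PyMT libraries alone, so its call is not used here as a result. Its log2 change of 3.40 was 2.48 without Control-PyMT replicate 1, 4.31 without Control-PyMT replicate 2 and 1.96 at a pseudocount of 5. Dlk2 did not pass, and Dll3 and Dner were under the level filter.

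Genes for ligand uptake rose in 1 and fell in 1 of 6 cases. Mib1, the ubiquitin ligase that signal-sending cells need for Delta and Jagged, went from 5021 ± 496 to 7498 ± 378 (log2 change 0.58, limma adjusted p = 0.0250), and its relative Mib2 stood at 712 and 1634 in the controls and did not pass (-0.54, adjusted p = 0.238). For receptor cleavage, 3 of 10 genes fell and 7 did not pass. Aph1b and Aph1c, alternative subunits of γ-secretase, fell from 662 ± 133 to 178 ± 24.5 (-1.88, adjusted p = 0.000323) and from 224 ± 31.0 to 68.7 ± 13.2 (-1.70, adjusted p = 0.00153). They are near-identical neighbours, so reads may be split between them and their single values are uncertain. Aph1a, the alternative to both, had a log2 change of -0.073 (adjusted p = 0.778). Adam10 fell from 9992.5 ± 2297 to 6541 ± 917 (-0.60, adjusted p = 0.0442).

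In the nucleus, the activators rose in 1 of 9 cases and fell in 3. Rbpj itself was at 1522 and 1422 scaled counts for the controls against 1277 and 1175 with MYC (log2 change -0.26, limma adjusted p = 0.272). Maml2, a Mastermind coactivator, fell from 875 ± 79.0 to 249 ± 40.0 (-1.82, adjusted p = 0.000229), while Kat2a, a histone acetyltransferase, rose from 1605 ± 372 to 4066 ± 149 (1.36, adjusted p = 0.000598). Corepressors rose in 1 of 12 cases and fell in 3. Tle2, a Groucho corepressor that HES and HEY proteins recruit, was at 460.1 and 1359 for the controls against 69.4 and 79.1 with MYC (-3.40, adjusted p = 0.000221). The change was -4.18 without Control-PyMT replicate 1 and -2.62 without Control-PyMT replicate 2, and it passed in both cases. Receptor turnover genes fell in 4 of 9 cases and none rose, beside 24.6% lower and 23.3% higher of all genes tested. Numb, which antagonises Notch in dividing cells, fell from 4069 ± 1062 to 1091 ± 48.8 (-1.87, adjusted p = 0.000131), Dtx3l, of the Deltex family and also known as interferon-inducible, from 3355 ± 332 to 1169 ± 120 (-1.52, adjusted p = 0.000202), and Dtx3 from 2196 ± 602 to 1067 ± 89.4 (-1.02, adjusted p = 0.00478).

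**Figure D3:**
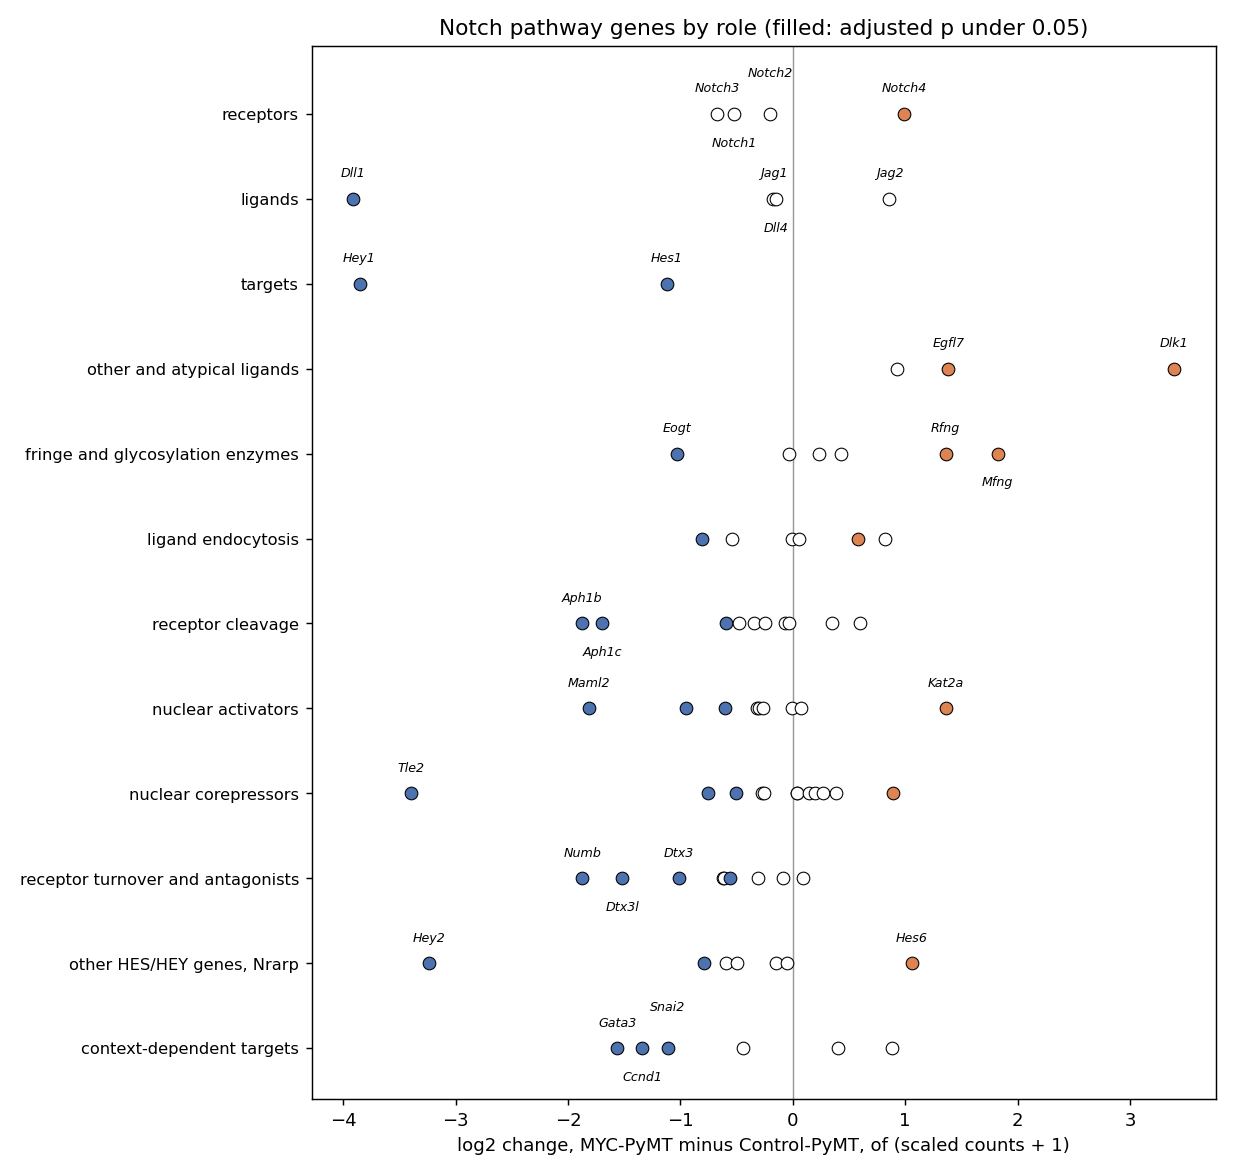
Log2 change of each tested gene in MYC-PyMT minus Control-PyMT, 1 row per role, on the scale of scaled counts plus 1. Filled points passed limma's adjusted p of 0.05, open points did not, and labels mark the 10 chosen genes and the called changes of at least 2-fold. Hey1, Dll1, Tle2 and Hey2 lay beyond -3.

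Markers of other cells moved in the same libraries, and their part in the results above was not tested. Beside the counts below, 23.3% of all genes tested were called higher and 24.6% lower. Of 9 myoepithelial and basal markers, 5 fell and 2 rose, with a summed level of 47430.3 to 48029 scaled counts in Control-PyMT and 20460.4 to 37389 in MYC-PyMT. The members that fell were Acta2, Cnn1 and Mylk, which serve contraction, the oxytocin receptor gene Oxtr and the basal regulator Trp63. Acta2 had a log2 change of -3.16 and Mylk of -4.29, while the basal keratin gene Krt14 and Lgals7, a galectin of stratified epithelia, rose by 1.24 and 0.92. Krt14 was at 4673 and 2481 scaled counts for the controls against 4828 and 13476 with MYC, so its rise rests mostly on MYC-PyMT replicate 2. Krt5 and Krt17 did not pass. Of 12 luminal markers, 8 fell, with sums of 149076 to 155925 in Control-PyMT and 113618 to 114949 in MYC-PyMT. Those that fell were the hormone receptor genes Pgr (log2 change -7.88), Esr1 (-2.79) and Prlr (-1.31), their partner factor Foxa1 (-5.09), the progenitor markers Aldh1a3 (-2.89) and Kit (-2.03), and the epithelial genes Cdh1 (-0.62) and Krt19 (-0.57). Krt8, Krt18, Epcam and Elf5 did not pass, and Krt8 was at 22210.5 to 28747 over the 4 libraries. Summed markers of T and NK cells were 543 to 573 in Control-PyMT and 127 to 157 in MYC-PyMT. Of the 8 tested, 6 met the level filter through Control-PyMT alone and so could only be lower with MYC, which leaves their calls without weight. Summed keratinocyte and hair markers were 3163 to 6317 in the controls and 224 to 296 with MYC, 5 of the 9 tested met the filter through Control-PyMT alone, and Krt25 was at 0 in both MYC-PyMT libraries. Of 10 pericyte and smooth muscle markers, 4 fell and 3 rose. The 4 are the contractile genes Acta2, Cnn1, Tagln and Myh11. Those that rose were Des (log2 change 1.67), Pdgfrb (0.77) and Rgs5 (0.72), while Cspg4, Abcc9 and Kcnj8 did not pass. The sums of that list were 44492 to 46183 in Control-PyMT and 8252 to 11159 in MYC-PyMT. In Control-PyMT they consist mostly of the 4 contractile genes, with Acta2 at 19203 and 20245.5 and Tagln at 13220 and 11773. The sums therefore say little about the other markers of the list. Acta2 and Cnn1 also stand in the myoepithelial and basal list. Of 5 arterial markers, Efnb2, the ligand ephrin-B2 that is also made by epithelium, fell from 1266 ± 13.7 to 415 ± 105, and Gja4, Gja5, Sox17 and Bmx did not pass. Summed neutrophil markers were 1234 to 3321 in Control-PyMT and 3849 to 5633 in MYC-PyMT, with 4 of 7 tested higher, 2 of which (Ngp and Camp) met the filter through MYC-PyMT alone. Fibroblast markers rose in 1 and fell in 2 of 8 cases, macrophage and dendritic markers rose in 1 and fell in 3 of 8, leukocyte markers fell in 2 of 5, and adipocyte markers rose in 1 and fell in 1 of 5, the latter being Lep, which met the filter through Control-PyMT alone.

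**Figure D4:**
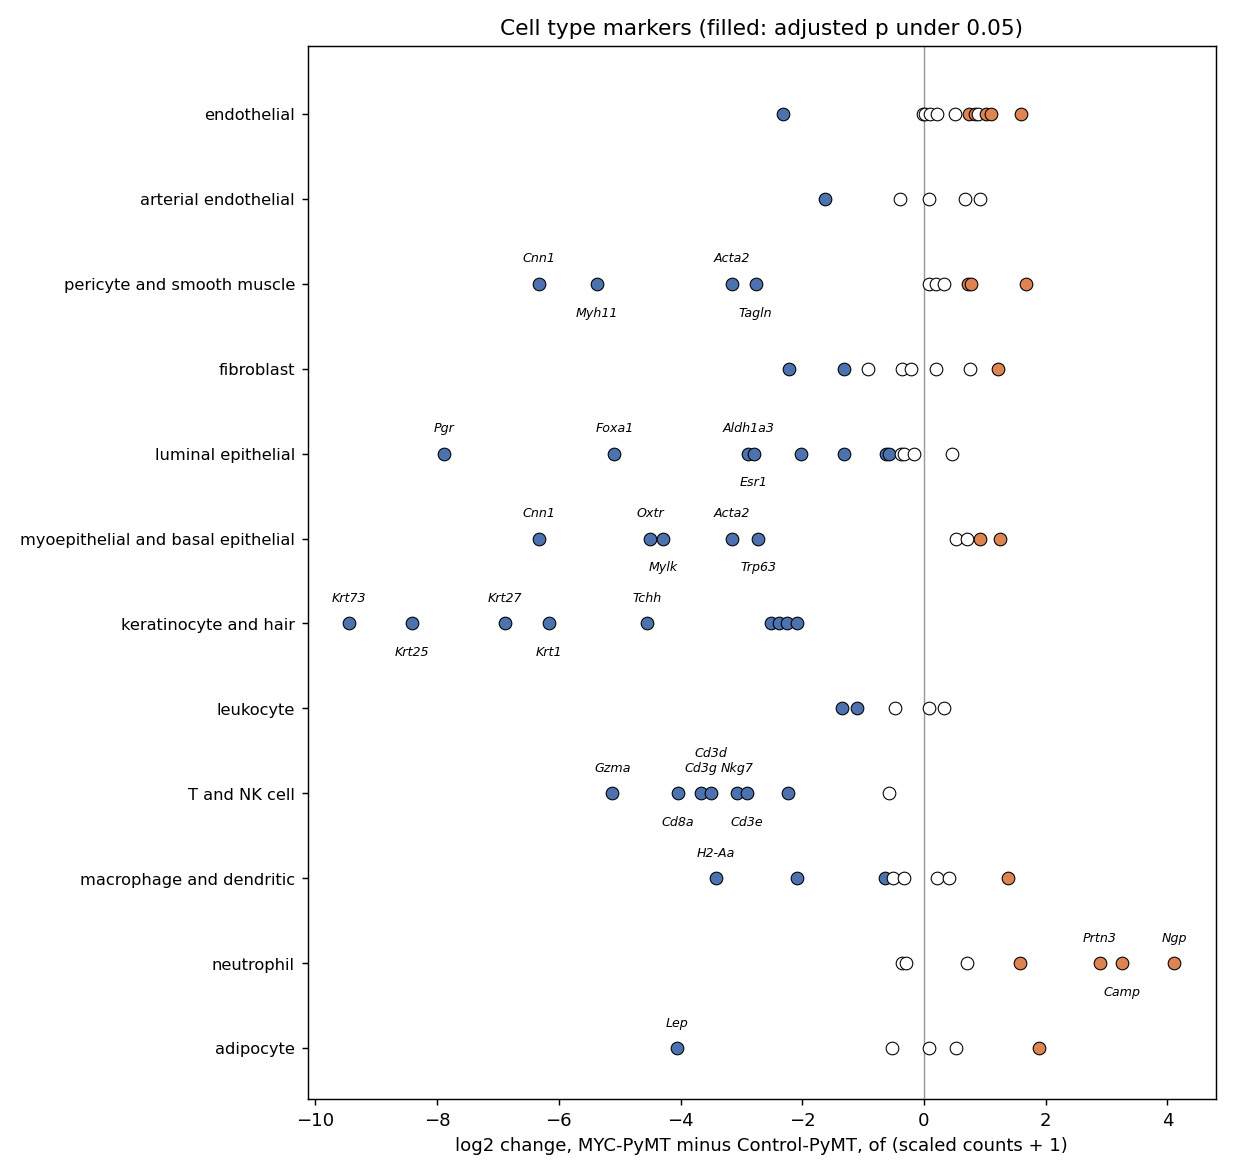
Log2 change of each tested marker gene in MYC-PyMT minus Control-PyMT, 1 row per cell type, on the scale of scaled counts plus 1. Filled points passed limma's adjusted p of 0.05, and labels mark called changes beyond 2.6 in either direction. In the myoepithelial and basal row 5 markers fell, the contractile genes to between -3 and -7, and 2 rose, Krt14 (1.24) and Lgals7 (0.92). Among the endothelial markers Vwf fell (-2.32), and the others lay near or above 0.

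Other genes with a like pattern were sought for the 4 called genes, by the Euclidean distance between log2 values centred over the 4 libraries, among named genes with a mean within 2-fold. The nearest to Hey1 were Ifi44 (distance 0.37) and Oasl2 (0.45), both interferon-inducible, and 3 of 3605 candidates lay within 0.5. For Dll1 they were Slc5a5, the iodide carrier (0.20), and Trabd2b (0.29), with 5 of 3395 within 0.5. Hes1 lay nearest to Acbd4 (0.14) and Ecm1 (0.16), and Notch4 to Ramp2, a vascular receptor partner (0.10), and Aarsd1 (0.12). Over 4 libraries such likeness is common for moderate changes: 199 of 5135 candidates lay within 0.5 of Hes1 and 84 of 2165 within 0.5 of Notch4.

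Hey1, Dll1 and Hes1 kept their direction and passed under all 16 other settings, which include each library left out in turn, other scalings, and edgeR and DESeq2 on recovered reads. The log2 change ran from -4.15 to -3.57 for Hey1, from -4.50 to -3.34 for Dll1 and from -1.35 to -0.90 for Hes1. Notch4 was called in 14 of the 16. The changes of Notch1, Notch2, Jag1 and Dll4 took the other sign under at least 1 setting.

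**Figure D5:**
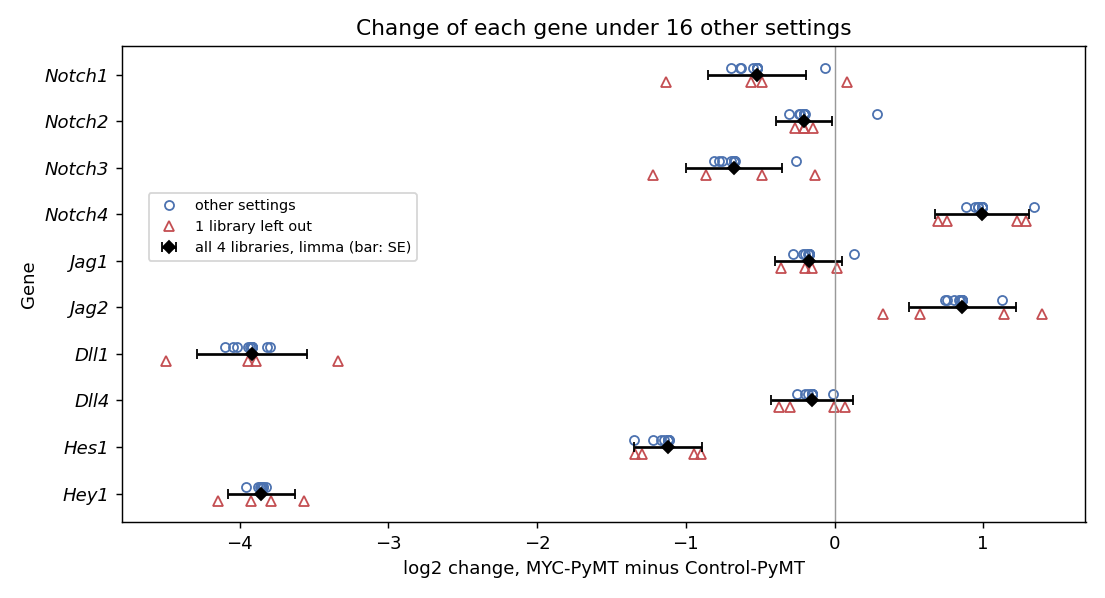
Log2 change of each of the 10 genes with all 4 libraries (diamonds, bars are the SE), with 1 library left out (triangles) and under the other settings (circles). Hey1, Dll1 and Hes1 stayed below 0 and Notch4 above 0 throughout, while points of Notch1, Notch2, Jag1 and Dll4 fell on both sides of 0.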

How the data were processed

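The deposited table gives the authors' scaled counts (a signal of 0 or more), with 1 column per library. The submitters' processing notes name HISAT2, DESeq2 and the builds mm10 and GRCm38.p5; counter, strand setting and annotation were not given in the sources used here. Every value (100%) was a whole multiple of the worth of 1 read, within 0.001 reads, so reads could be recovered, 31783846 to 34190913 per library. For MYC-PyMT replicate 1, whose read is worth 1.01 scaled counts, a second check of the step could not decide, and its reads rest on that multiple alone; they enter the count tests, which are alternatives. The level filter left 16725 genes. limma 3.58.1 (R 4.3.3; lmFit, eBayes with a variance trend, two-sided) was run on log2(value + 1), which understates changes of low genes, adjusted by Benjamini-Hochberg, with calls at 0.05. Coordinates and transcript lengths (APPRIS principal, otherwise longest) came from GENCODE mouse release 21, which matched 20463 of 20555 IDs; 23 symbols stored as spreadsheet dates were taken by ID.

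Members, gene lists and tests were chosen with earlier results of these data known. The rule named the 10 genes, pathway genes called with at least 2-fold change, otherwise the 2 most abundant of a list, up to 4 abundant genes per marker list, and the 2 genes most like each called member. Lfng, Heyl, Nrarp, Rbpj, Aph1a, Adam10, Dlk2, Dll3, Dner and marker genes beyond the 4 were named after their values were seen. So were Bhlhe40, Bhlhe41, Myc, Cdkn1a and Il7r. The distance of 0.5 and the form of symbol left out of the likeness search were also set then. Other settings were a pseudocount of 0.5 or 5, dropping the level filter or raising it to 50, scaling by TMM or by upper quartile, limma with no trend, a replicate block, leaving out each library (with the filter applied anew to the rest, and the lone sample assumed to vary like the other group), an adjusted p under 0.10, edgeR 4.0.16 (quasi-likelihood) and DESeq2 1.42.0 on recovered reads, and removal of a lowess trend with transcript length. Counts were simulated for the 16725 genes tested, of which 200 were changed, and 16373 genes then passed the level filter. There limma recovered 8% at 1.5-fold, 42% at 2-fold, 92% at 4-fold and 100% at 8-fold and called 5 unchanged genes. A changed gene under the filter would count as not recovered. Far fewer genes changed there than were called in the real data. The Benjamini-Hochberg cut was therefore stricter in the simulation, and these recoveries do not carry over to the real test. Promoter sequences are RefSeq's, build GRCm38.p6.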

Additional observations from a re-analysis of the deposited data

How the results depend on the processing

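Of 557 comparisons of a result with another setting, 527 kept direction and side of the threshold, or a count within 1.5 times. With 1 library left out, the count of the 10 genes called lower, 3, stayed or rose, and the count called higher, 1, fell or rose. The latter was 2 with the replicate block, at an adjusted p under 0.10 and with the transcript length trend removed. Further pathway genes called lower, 20, were 12 to 22 with 1 library left out, and those called higher, 8, were 5 to 10. Over all genes tested, 3892 were called higher, 2566 to 3662 with 1 library left out, the lowest without MYC-PyMT replicate 2. edgeR called 7925 genes and DESeq2 7293, against 8010 by limma. Upper-quartile scaling moved the median log2 change of all genes from -0.02 to -0.12 and changed no call of the 10 genes. Signs changed for genes that did not pass with all libraries. With 1 library left out, Notch1 ran from -1.13 to 0.084, Jag1 from -0.36 to 0.014 and Dll4 from -0.37 to 0.071; Notch1 and Dll4 were above 0 without Control-PyMT replicate 2, Jag1 without Control-PyMT replicate 1. With the length trend removed, Notch2 was at 0.28 and Jag1 at 0.13. The cause was not tested. Notch3 passed with the replicate block (-0.68, adjusted p = 0.0334) and by DESeq2 (-0.75, adjusted p = 0.0460), and Jag2 with the block (0.86, adjusted p = 0.0151). The labels give no pairing beyond the number; differences between replicates correlated at -0.0886 across genes between the groups. Of the 18 further pathway genes with a called 2-fold change, 17 were called under every alternative that tested them. The 17 include Dlk1, which met the level filter through the MYC-PyMT libraries alone. At 2 libraries a group, changes near 2-fold can be missed. The simulation recovered 42% of them, but with far fewer genes changed than were called here, so the share missed here is not known.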
